A study of Mus musculus with 10 samples.

Results

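Chromatin accessibility of control regulatory T (Treg) cells was compared between the lung and the spleen, peak by peak, using the 4 control libraries (2 of lung, 2 of spleen) among 10 libraries in all and the whole table of 97385 peaks. The assay was ATAC-seq, in which a transposase cuts open DNA and the reads piled up at a place measure how accessible it is. All cells were sorted as TCRb+ CD4+ Foxp3-YFP+ from 10-day-old mice, and every library carries Foxp3-Cre-YFP, a Cre recombinase driven by the Foxp3 gene and therefore active in Treg cells. Control mice were Foxp3Cre with Pik3c3+/+ or Pik3c3+/fl, and which of these each control library had is not given in the sources used here. The other libraries, Foxp3Cre Pik3c3 fl/fl, lack the lipid kinase Vps34 in Treg cells (4 of spleen, 2 of lung) and serve here only as a second set in which the same tissue difference was measured. The study's methods give the numbers of control and deficient spleen libraries the other way round. The sample labels and the column names of the table match each other and were followed, and every value below rests on them. The labels do not say that libraries came from separate animals, so p-values measure the spread between libraries, which may be technical.

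Treg cells restrain immune responses and depend on the transcription factor Foxp3. In lymphoid organs many of them are of a central type that recirculates through lymph nodes, whereas in lung, skin, fat and gut they are known to take on an effector program with the IL-33 receptor ST2 (Il1rl1), Klrg1, the cytokine IL-10 and the growth factor amphiregulin (Areg), and with accessible chromatin at sites for BATF and other AP-1 factors. Most differences between states of one T-cell lineage are known to lie at distal enhancers rather than at promoters.

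The 8 stretches of DNA are shown because the results below turn on them, each read from the plus strand of GRCm38 around the centre of a peak. Capitals mark matches, on either strand, of the short AP-1, GATA, RUNX and NF-kB letters that are spelled out beside their shares in the account of sequence matches. The first 5 come from peaks that were more accessible in lung, at chr7:99671408-99671707 (intron of Slco2b1), chr11:106416354-106416553 (intron of Ern1, nearest start Icam2), chr6:115440583-115440882 (intron of Pparg), chr16:43664158-43664457 (start of Tigit) and chr1:191193770-191194069 (intron of Atf3). The next 2 come from peaks close to 0 in lung, at chr8:105821082-105821281 (intron of Ranbp10) and chr11:84823659-84823858 (intron of Dhrs11, nearest start Mrm1). The last, at chr8:16716308-16716507 (intron of Csmd1), is 1 of the narrow peaks treated apart below and holds none of these letters.
Slco2b1: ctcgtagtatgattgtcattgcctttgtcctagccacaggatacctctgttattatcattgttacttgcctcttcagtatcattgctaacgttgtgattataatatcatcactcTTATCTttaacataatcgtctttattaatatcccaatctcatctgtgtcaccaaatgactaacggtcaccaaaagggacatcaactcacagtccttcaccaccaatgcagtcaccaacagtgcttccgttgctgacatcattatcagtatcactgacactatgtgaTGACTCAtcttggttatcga
Ern1 intron (nearest start Icam2): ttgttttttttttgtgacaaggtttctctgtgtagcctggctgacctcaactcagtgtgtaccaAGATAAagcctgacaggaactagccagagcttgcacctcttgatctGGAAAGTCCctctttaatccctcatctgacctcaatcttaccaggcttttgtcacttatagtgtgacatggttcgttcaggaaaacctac
Pparg: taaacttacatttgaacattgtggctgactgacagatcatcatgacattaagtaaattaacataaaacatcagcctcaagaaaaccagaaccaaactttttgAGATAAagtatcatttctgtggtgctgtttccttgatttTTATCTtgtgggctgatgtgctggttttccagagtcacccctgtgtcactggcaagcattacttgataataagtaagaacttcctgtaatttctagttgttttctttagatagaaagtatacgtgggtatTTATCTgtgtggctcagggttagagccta
Tigit: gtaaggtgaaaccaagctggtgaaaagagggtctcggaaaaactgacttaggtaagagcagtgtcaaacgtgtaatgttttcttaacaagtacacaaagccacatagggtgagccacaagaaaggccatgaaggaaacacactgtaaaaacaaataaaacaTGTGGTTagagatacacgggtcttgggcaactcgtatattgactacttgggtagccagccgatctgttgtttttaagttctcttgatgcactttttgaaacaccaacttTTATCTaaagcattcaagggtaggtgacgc
Atf3: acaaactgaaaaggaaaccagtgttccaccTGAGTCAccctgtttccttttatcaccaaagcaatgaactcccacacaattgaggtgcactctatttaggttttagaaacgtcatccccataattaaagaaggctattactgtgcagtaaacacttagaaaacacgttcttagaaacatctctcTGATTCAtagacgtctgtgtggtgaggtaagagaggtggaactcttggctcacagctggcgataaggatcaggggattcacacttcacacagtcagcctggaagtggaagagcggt
Ranbp10: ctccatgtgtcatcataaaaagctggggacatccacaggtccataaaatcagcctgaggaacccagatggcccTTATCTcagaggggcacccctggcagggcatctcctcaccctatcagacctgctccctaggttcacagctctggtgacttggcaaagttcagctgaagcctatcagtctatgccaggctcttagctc
Dhrs11 intron (nearest start Mrm1): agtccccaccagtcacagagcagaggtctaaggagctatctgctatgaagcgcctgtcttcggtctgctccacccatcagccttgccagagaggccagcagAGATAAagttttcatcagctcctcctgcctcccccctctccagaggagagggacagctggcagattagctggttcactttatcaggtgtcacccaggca
Csmd1: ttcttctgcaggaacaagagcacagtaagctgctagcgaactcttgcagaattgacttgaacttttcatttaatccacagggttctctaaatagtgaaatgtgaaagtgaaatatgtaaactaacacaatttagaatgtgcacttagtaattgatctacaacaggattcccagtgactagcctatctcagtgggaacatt

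More peaks were accessible above the spleen level in lung than below it. By edgeR (quasi-likelihood test, Benjamini-Hochberg adjusted p below 0.05, a log2 fold change, lung minus spleen, beyond 0.5), 7880 of 93297 tested peaks were higher in lung (8.45%) and 2013 were lower (2.16%). This count depends on which libraries give the spread. The median absolute log2 difference was 0.378 between the lung libraries and 0.246 between the spleen libraries. Without either spleen library the spread came from the lung libraries alone, and the fit called no peak in either direction. None of the called peaks kept under the naming rule was called there. Over 220 bp the fits without spleen control 1 and spleen control 2 still called 153 and 173 of the 219 such peaks, and those without lung control 1 and lung control 2 called 214 and 192. The median log2 fold change was 1.62 among the higher and -1.36 among the lower peaks. Both lung libraries lay on the same side of both spleen libraries at every one of the 9893 called peaks, against 57.3% of all tested peaks. The 4 libraries held 22439699 and 14519013 counts for spleen and 9405823 and 14172956 for lung. With 2 libraries a group an exact permutation test of a single peak cannot go below p = 0.333, so all p-values come from the fit across peaks.

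A large part of the excess in lung lay in peaks about 210 bp wide. Of the 22950 peaks of at most 220 bp, 6921 were exactly 210 bp wide. Among tested peaks of 200 to 220 bp 30.4% were higher in lung and 0.409% lower, whereas in the other width classes 1.81% to 4.70% were higher. These narrow peaks took 4.26% and 5.22% of the counts in the spleen control libraries and 12.4% and 7.80% in the lung control libraries. For the Vps34-deficient libraries the same share was 13.0% and 14.1% for lung and 5.34% to 7.12% for spleen. Of the 5226 higher peaks that were narrow, lung control 1 exceeded lung control 2 at 94.2%. At the Csmd1 peak shown above (212 bp), spleen read 10.3 and 14.9 CPM (counts scaled to a common library size with TMM factors) and lung 42.1 and 22.8. The lungs lay above both spleens there and differed from each other by almost as much as from the spleens. The plot of fold change against level shows the class apart from wider peaks, which at high levels centre on 0. The part of library preparation or peak calling in this class was not tested, and counts over gene lists and windows are given below also from a second fit of peaks over 220 bp alone.

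**Figure D1:**
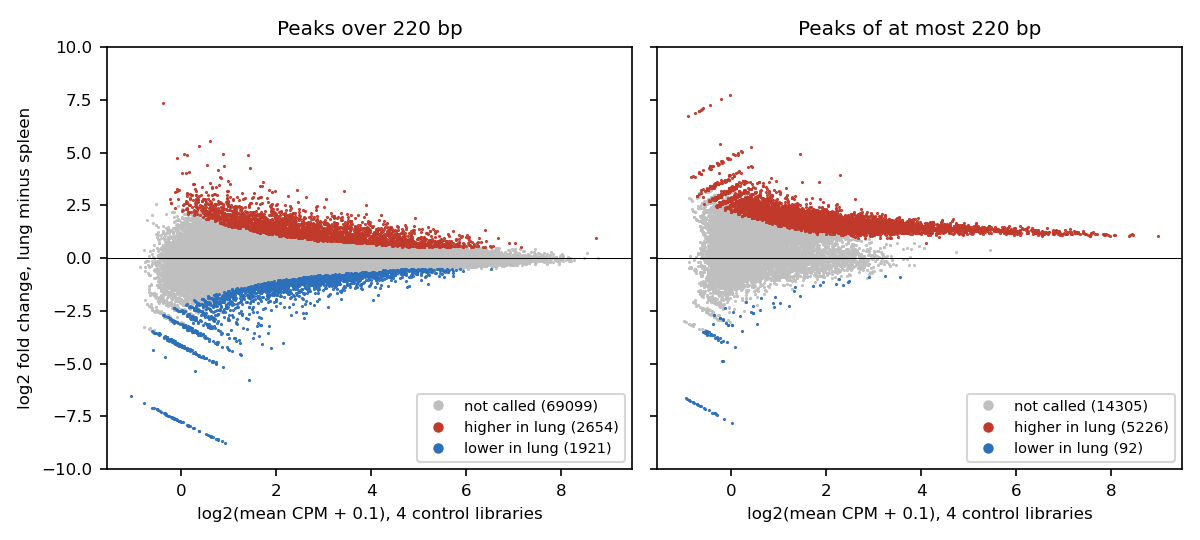
Log2 fold change, lung minus spleen (y axis), against mean level over the 4 control libraries on a log2(CPM) axis with a small offset (x axis), 1 point a tested peak of the fit of all peaks, for peaks over 220 bp (left) and of at most 220 bp (right). Over 220 bp 2654 were higher and 1921 lower, whereas among narrow peaks 5226 were higher and 92 lower, and the narrow ones of high level lay in a band above 0.

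Among the 73674 tested peaks over 220 bp, 3694 were higher in lung (5.01%) and 1709 lower (2.32%), with medians of 1.22 and -1.36 on the log2 scale. Higher peaks had a median of 9.40 CPM in lung and 4.36 CPM in spleen, and lower peaks 2.20 and 6.03 CPM. A difference beyond 4-fold was fitted at 507 of the higher and 515 of the lower peaks. Only 7 of the higher peaks had at most 3 counts in both spleen libraries, whereas 198 of the lower peaks had at most 3 counts in both lung libraries. Without spleen control 1 the fit called 1581 higher and 664 lower, without spleen control 2 it called 2129 and 587, without lung control 1 it called 6178 and 4327, and without lung control 2 it called 4488 and 3242.

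Called peaks were less frequent at gene starts than away from them. Of peaks over 220 bp that hold a protein-coding start 2.02% were higher in lung and 0.530% lower, whereas of those 1 to 10 kb away 5.64% and 2.29% were, and of those 50 to 200 kb away 6.02% and 3.35%. Beyond 200 kb the shares were 6.85% and 4.04%. Over all widths the rise with distance was steeper for higher peaks, from 1.39% at starts to 20.5% beyond 200 kb, where 52.0% of tested peaks were narrow. Beyond 1 kb from a start, 5.73% of intronic peaks over 220 bp were higher and 3.13% lower, and 5.91% and 2.45% of intergenic peaks were. With 1 library left out the shares over 220 bp stayed lower within 1 kb of a start than beyond it. For higher peaks they were 0.959% against 2.48% without spleen control 1, 1.12% against 3.38% without spleen control 2, 4.60% against 9.45% without lung control 1 and 3.29% against 6.86% without lung control 2. For lower peaks they were 0.289% against 1.08%, 0.270% against 0.948%, 2.27% against 6.91% and 2.67% against 4.90% in the same order. Over all widths and without lung control 2, however, 5.36% of peaks within 1 kb and 6.14% of those beyond were lower. On the X chromosome 3.92% of such peaks were higher and 1.16% lower.

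**Figure D2:**
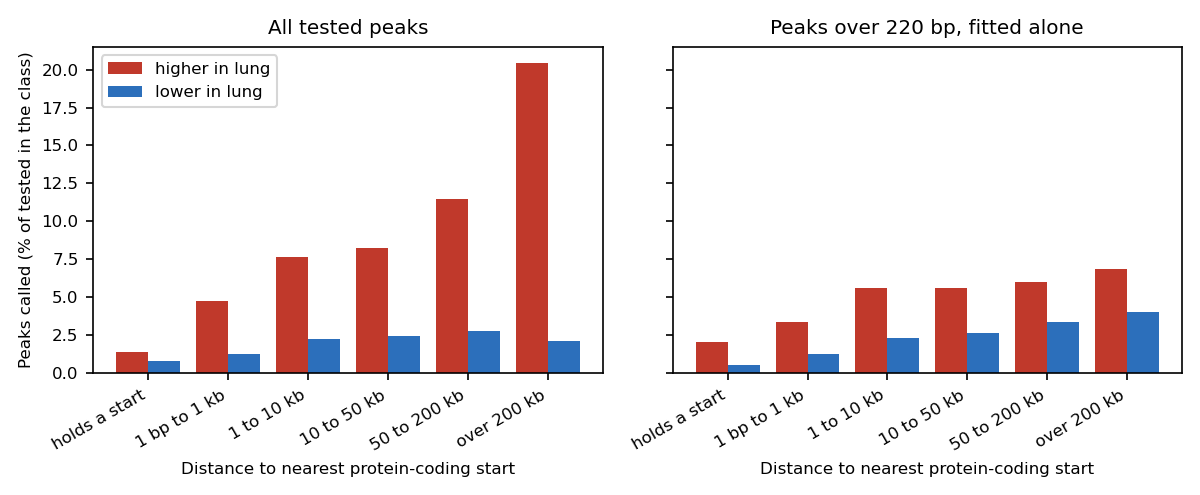
Percent of tested peaks called higher or lower in lung (y axis, bars) by distance to the nearest protein-coding start (x axis), for all peaks (left) and for peaks over 220 bp fitted alone (right). Over 220 bp the higher share went from 2.02% at starts to 6.85% beyond 200 kb.

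Genes of the tissue effector program carried more accessible peaks in lung. Of 157 tested peaks over 220 bp at 18 such genes (gene body and 10 kb on each side), 39 were higher (24.8%, against 5.01% of all peaks over 220 bp) and 0 lower (against 2.32%), with a median log2 fold change of 0.44 against -0.01 over all peaks. The higher peaks were at 11 genes, with 15 of 41 at Rora, 5 of 8 at Klrg1, 4 of 7 at Il1rl1, 3 of 6 at Pparg, 3 of 4 at Il10, 3 of 12 at Tnfrsf9, 2 of 6 at Tigit and 1 each at Batf, Areg, Gzmb and Fgl2. In the fit of peaks over 220 bp, leaving out 1 library gave 23 (without spleen control 1), 28 (without spleen control 2), 63 (without lung control 1) and 28 (without lung control 2), the last with 3 lower. Over all widths 36 of 179 were higher and 0 lower, with 0 higher where a spleen library was left out. None was called at Gata3, Maf, Prdm1, Nfil3, Ccr8, Irf4 and Itgae.

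At Il1rl1, which encodes the receptor for the alarmin IL-33, the leading peak 3850 bp upstream of the start (chr1:40425451-40425720) read 0.607 and 0.344 CPM in spleen and 3.35 and 4.97 CPM in lung. Both lung libraries were far above both spleen libraries, and the log2 fold change was 3.07 ± 0.483 (SE, adjusted p = 0.00779). At Klrg1, an inhibitory receptor of terminally differentiated lymphocytes, the peak 618 bp from the start (chr6:122283500-122283902) read 4.29 and 4.54 CPM in spleen and 7.99 and 14.0 CPM in lung. The lungs were higher and further apart from each other than the spleens, with a log2 fold change of 1.33 ± 0.290 (adjusted p = 0.0164). Within an intron of Pparg, the nuclear receptor known from Treg cells of fat, the peak whose centre is printed above with 3 GATA matches (chr6:115440368-115441097) read 2.43 and 4.96 CPM in spleen and 11.2 and 17.3 CPM in lung. As at every called peak the groups did not overlap, and the log2 fold change was 2.00 ± 0.335 (adjusted p = 0.00807).

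Tigit encodes an inhibitory receptor of T cells, and its start peak (chr16:43663949-43664666, with 1 RUNX and 1 GATA match in the printed centre) read 46.9 and 56.3 CPM in spleen and 81.8 and 95.6 CPM in lung. This strong peak differed by 0.78 ± 0.125 on the log2 scale (adjusted p = 0.00789). At Il10, the anti-inflammatory cytokine, an intronic peak read 10.3 and 12.1 CPM in spleen and 15.3 and 23.2 CPM in lung (0.79 ± 0.230, adjusted p = 0.0462). It was the only Il10 peak called in the fit of all peaks. Batf (0.51), Areg (0.49) and Gzmb (0.77) had adjusted p = 0.101, 0.0732 and 0.0824 there and were called only in the fit of peaks over 220 bp (adjusted p = 0.0414, 0.0333 and 0.0430).

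Gata3, a factor of type 2 lymphocytes, had 13 tested peaks over 220 bp and none called. Its strongest peak read 42.7 and 48.2 CPM in spleen and 40.9 and 44.7 CPM in lung, with overlapping groups (-0.08 ± 0.127, adjusted p = 0.734). At Foxp3 none of 11 peaks was called. The strongest of them read 57.7 and 62.8 CPM in spleen and 45.6 and 62.3 CPM in lung, so that the groups overlapped (-0.15 ± 0.144, adjusted p = 0.545).

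Rora, a nuclear receptor gene of more than 700 kb, held more peaks called higher in the fit over 220 bp than any other gene locus apart from Gm20388, a read-through gene model over a megabase that spans many genes. Of its 52 tested peaks of any width 19 were higher and 0 lower, and 43 had a fold change above 0, while over 220 bp 15 of 41 were higher and 34 lay above 0. The summed signal of the locus was 339 and 348 CPM in spleen and 451 and 588 CPM in lung. Called peaks lay 31.1 to 735 kb downstream of the first start, but those before 316 kb were narrow, and calls over 220 bp began at 316 kb. The leading one (chr9:69304335-69305045) read 14.4 and 15.4 CPM in spleen and 29.4 and 42.1 CPM in lung (1.27 ± 0.188, adjusted p = 0.00746). Near the 3' end, at chr9:69388910-69389580, the levels were 0.433 and 0.138 CPM in spleen and 2.59 and 4.61 CPM in lung. The 200 kb at chr9:69156370-69356369 held 11 higher peaks of 17 tested, and 11 of 16 over 220 bp, in a window chosen for its density of calls. Of all peaks, 8.45% and 5.01% were higher. The window with the most higher peaks was another, chr8:124242417-124442416, with Galnt2 and Pgbd5. It held 12 of 30, and 12 of 26 over 220 bp.

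Part of a cluster of cytokine receptor genes on chromosome 1 also held many higher peaks. In the 200 kb at chr1:40383148-40583147, with Il1rl1, Il18r1 and Il18rap (the chains of the IL-18 receptor) and Slc9a4, 10 of 28 peaks of any width and 13 of 23 over 220 bp were higher and 0 lower, beside 8.45% and 5.01% of all peaks higher. This window, too, was chosen for its density of calls. At the adjoining receptor genes Il1r1 and Il1r2 of the cluster, 0 of 9 and 0 of 6 peaks were called. The summed signal of this window was 127 and 134 CPM in spleen and 204 and 275 CPM in lung. The leading Il18r1 peak read 15.3 and 17.0 CPM in spleen and 28.5 and 28.9 CPM in lung (0.83 ± 0.164, adjusted p = 0.0113). The plot of fold changes along both loci shows 43 of 52 tested peaks above 0 at Rora and 17 of 19 at Il1rl1 to Il18rap (34 of 41 and 13 of 15 over 220 bp).

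**Figure D3:**
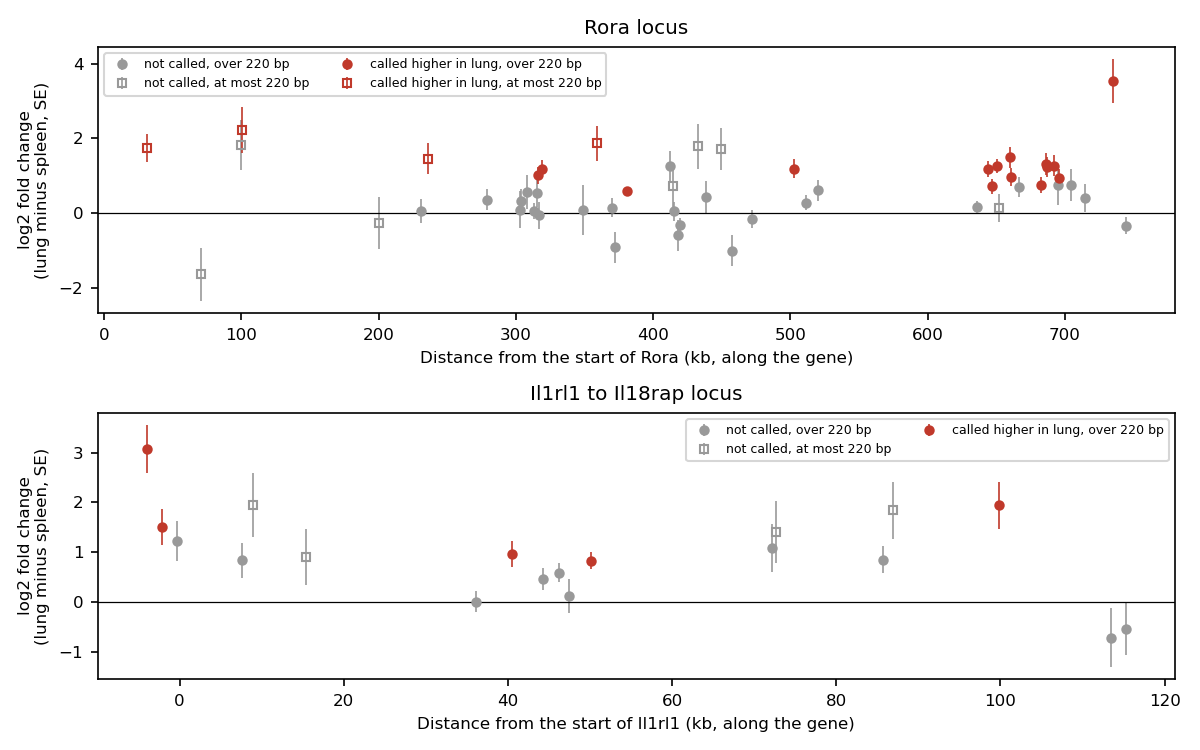
Log2 fold change, lung minus spleen (y axis), of each tested peak against distance in kb from the first gene start (x axis) for Rora and for Il1rl1 to Il18rap, with bars of 1 SE, filled circles for peaks over 220 bp and open squares for narrower ones. Calls are those of the fit of all peaks. At Rora 43 of 52 peaks lay above 0 and 19 were called higher, and at Il1rl1 to Il18rap 17 of 19 lay above 0 and 5 were called.

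At cytokine and lineage genes, too, called peaks were mostly higher in lung. At cytokines and effector molecules 12 of 58 peaks over 220 bp were higher and 0 lower (8 and 0 of 60 over all widths), and at cytokine receptors 17 of 155 were higher and 1, at Il12rb2, lower (9 and 1 of 172). The higher share was 20.7% at cytokines and 11% at receptors, against 5.01% of all peaks over 220 bp. Part of this repeats the tissue effector list, which shares Il10, Areg, Gzmb, Fgl2 and Il1rl1. Without these genes 6 of 46 peaks were higher at cytokines (13.0%) and 13 of 148 at receptors (8.78%). Over the whole lists, higher peaks outnumbered lower ones in every fit with 1 library left out. Fewer peaks were higher than with all 4 libraries, except without lung control 1. Some peaks of both lists were lower without either lung library. A peak 12.9 kb from Il17a (chr1:20743771-20744345), the signature cytokine of Th17 cells, read 19.2 and 19.7 CPM in spleen and 41.9 and 50.5 CPM in lung (1.25 ± 0.148, adjusted p = 0.00471). In the type 2 cytokine cluster, the peak between Il13 and Il4 (chr11:53626710-53627075) read 1.65 and 2.75 CPM in spleen and 5.72 and 10.4 CPM in lung (1.92 ± 0.369, adjusted p = 0.0106). At Il5 a peak 743 bp from the start went from 1.56 and 0.826 CPM to 4.10 and 6.20 CPM (2.07 ± 0.411, adjusted p = 0.0117). Spleen and lung did not overlap at any of these 3 peaks, as at every called peak (57.3% of all tested peaks).

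Of 118 peaks over 220 bp at helper lineage transcription factors 23 were higher and 0 lower (25 and 1 of 136 over all widths), a share of 19.5% against 5.01% of all peaks. With 1 library left out fewer were higher, except without lung control 1, and some were lower without either lung library. Rora, counted above in the tissue effector list, held 15 of them, Stat4 4, and Tbx21 and Stat3 2 each, so that without Rora 8 of 77 peaks were higher (10.4%). In an intron of Stat4, which relays IL-12 signals, the leading peak read 3.81 and 5.37 CPM in spleen and 13.0 and 15.0 CPM in lung (1.62 ± 0.25, adjusted p = 0.00768). The start of Tbx21, the Th1 factor T-bet, read 3.55 and 2.89 CPM in spleen and 6.91 and 6.34 CPM in lung (1.02 ± 0.288, adjusted p = 0.0419).

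TNF receptor and NF-kB genes gained accessibility at 19 of 125 peaks over 220 bp (15.2% against 5.01% of all peaks) with 1 lower (18 and 2 of 138 over all widths), 6 of them at Nfkb1. Without spleen control 1, spleen control 2, lung control 1 and lung control 2 in turn 10, 14, 38 and 14 were higher, with 5 lower in the last. Tnfaip3 encodes A20, a brake on NF-kB, and its leading peak 11.6 kb away (chr10:19000082-19000337) read 0.520 and 1.24 CPM in spleen and 5.40 and 6.49 CPM in lung (2.83 ± 0.433, adjusted p = 0.00766). An intronic peak of Nfkb1, which encodes the p105 and p50 subunits, read 2.60 and 3.99 CPM in spleen and 9.29 and 11.2 CPM in lung (1.67 ± 0.286, adjusted p = 0.00824). Near Tnfrsf18, the costimulatory receptor GITR, the levels were 31.7 and 33.2 CPM in spleen and 53.6 and 80.0 CPM in lung (1.05 ± 0.167, adjusted p = 0.00787).

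At AP-1 family genes 8 of 132 peaks over 220 bp were higher and 2 lower (8 and 3 of 141 over all widths), a higher share close to the 5.01% of all peaks. The higher ones were 4 at Fosl2, 2 at Atf3 and 1 each at Batf and Batf3, and the lower ones were at Bach1 and Bach2, which encode repressors that bind AP-1-like sites. The start of Fosl2 read 40.0 and 49.3 CPM in spleen and 72.6 and 101 CPM in lung (0.96 ± 0.156, adjusted p = 0.00789). The intronic Atf3 peak printed above with 2 AP-1 matches read 55.7 and 62.4 CPM in spleen and 90.9 and 111 CPM in lung (0.78 ± 0.120, adjusted p = 0.00768). The Bach1 peak went the other way, from 32.9 and 30.9 CPM in spleen to 15.1 and 17.6 CPM in lung (-0.96 ± 0.163, adjusted p = 0.00817). At genes induced by the T-cell receptor 11 of 140 peaks were higher, 5 of them at Tox, and 1 lower (11 and 2 of 159 over all widths), a higher share of 7.86% near the 5.01% of all peaks. Without lung control 1 the higher peaks were 19 at both lists, the lower ones 8 at AP-1 genes and 2 at receptor-induced genes, and without lung control 2 the lower ones were 7 and 4. Without spleen control 1 the higher ones were 6 and 7.

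Genes of the central program did not move one way. Of 411 peaks over 220 bp at 18 genes of central and lymphoid Treg cells 17 were higher and 6 lower, and the median log2 fold change was -0.08. Their shares, 4.14% and 1.46%, were under the 5.01% and 2.32% of all peaks. With 1 library left out the balance turned only without lung control 2, where more peaks were lower than higher. Without lung control 1 the counts were closer to even. Without either spleen library most called peaks were higher. Over all widths 15 of 457 were higher and 9 lower, and with library-size scaling 15 were higher and 16 lower. Ccr7, the receptor that guides T cells into lymph nodes, had 3 higher peaks. The leading one 11.4 kb from its start (chr11:99142577-99143658) read 4.07 and 5.23 CPM in spleen and 14.9 and 13.8 CPM in lung (1.64 ± 0.237, adjusted p = 0.00731). Lef1, a transcription factor of naive T cells, also had 3 higher peaks, whereas Bcl2, an inhibitor of cell death, had 2 lower and Bach2 1 lower. The leading Bcl2 peak read 6.59 and 6.19 CPM in spleen and 2.59 and 1.87 CPM in lung (-1.54 ± 0.320, adjusted p = 0.0139). Tcf7, Satb1, S1pr1, Klf2, Foxo1 and Id3 had no called peak over 220 bp.

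At Treg identity genes 5 of 161 peaks over 220 bp were higher and 4 lower (9 and 4 of 190 over all widths), and at chemokine and homing receptors 12 of 152 were higher and 4 lower (14 and 4 of 174). The higher shares, 3.11% and 7.89%, lay on both sides of the 5.01% of all peaks. Identity genes had 3 higher and 0 lower without spleen control 1, 6 and 0 without spleen control 2, 18 and 7 without lung control 1, and 6 and 15 without lung control 2, and chemokine receptors 3 and 1, 6 and 0, 18 and 10, and 8 and 3 in the same order. The chemokine list held higher and lower members side by side. Near Ccr4, a receptor of skin and lung homing, a peak read 0.867 and 1.38 CPM in spleen and 3.46 and 4.61 CPM in lung (1.88 ± 0.421, adjusted p = 0.0180), whereas an intronic Ccr6 peak read 4.51 and 5.02 CPM in spleen and 2.16 and 1.73 CPM in lung (-1.30 ± 0.346, adjusted p = 0.0340). Coinhibitory and costimulatory receptors had 8 higher and 7 lower of 123 peaks (9 and 9 of 142 over all widths), against 5.01% and 2.32% of all peaks, and 5 and 1, 6 and 4, 21 and 12, and 9 and 12 with the libraries left out in that order. Cd226, which competes with Tigit for ligands, had 3 lower peaks and 1 higher. Its leading peak, 66.2 kb away, read 9.10 and 10.3 CPM in spleen and 3.02 and 1.44 CPM in lung (-2.17 ± 0.339, adjusted p = 0.00779). At Pdcd1, the receptor PD-1, an intronic peak rose by 1.39 ± 0.227 (adjusted p = 0.00789) and a peak 911 bp from the start fell by 0.86 ± 0.164 on the log2 scale (adjusted p = 0.0102).

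**Figure D4:**
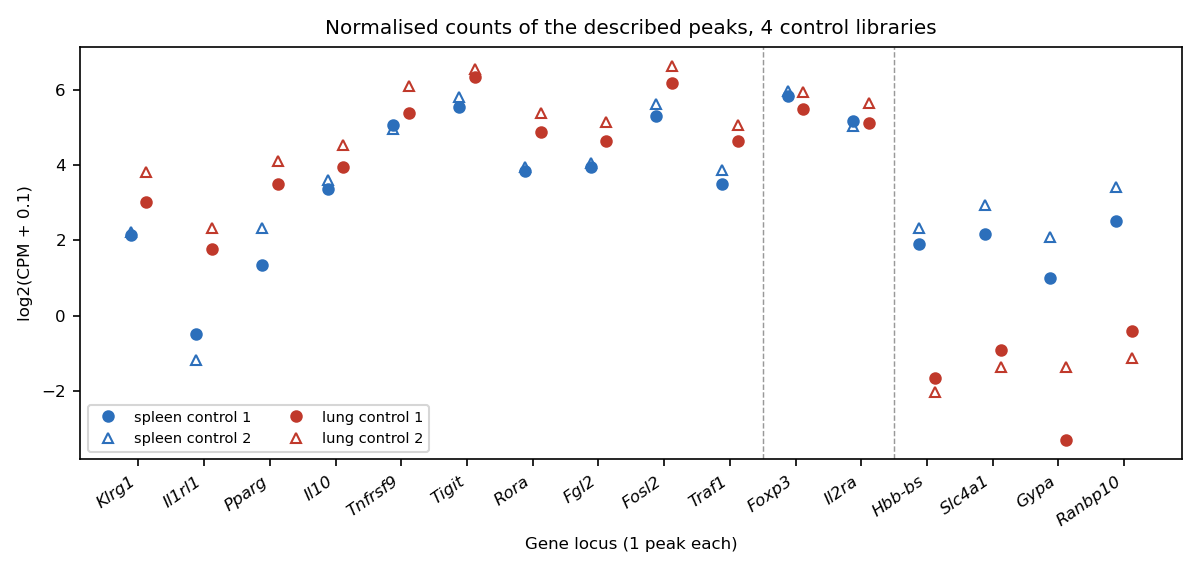
Level of 1 peak at each named gene (x axis) on a log2(CPM) axis with a small offset (y axis), each point 1 of the 2 spleen control and 2 lung control libraries, with dashed lines between peaks higher in lung, Treg identity peaks and peaks lower in lung. Both lung libraries lay above both spleen libraries from Klrg1 to Traf1 and below them from Hbb-bs to Ranbp10, as at every called peak. This separation follows from showing called peaks. Foxp3 and Il2ra had no called peak, so their strongest peak is shown, and there the groups overlapped.

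The peaks with the smallest p lay outside these lists. At an Arhgef28 intron (chr13:98124149-98124883), a guanine nucleotide exchange factor, spleen read 12.1 and 13.2 CPM and lung 43.4 and 51.9 CPM (1.92 ± 0.158, adjusted p = 0.0037). In the organic anion transporter gene Slco2b1 (chr7:99671155-99671959, printed above with 1 GATA and 1 AP-1 match), spleen read 2.17 and 1.93 CPM and lung 12.7 and 15.9 CPM (2.80 ± 0.264, adjusted p = 0.0038). Replicates were close to each other at both peaks. The Ern1 intron peak printed above read 1.39 and 3.03 CPM in spleen and 16.1 and 21.9 CPM in lung (3.17 ± 0.332, adjusted p = 0.0038). At promoters, Gng4, a G-protein gamma subunit, had the smallest p in the fit of all peaks, with 13.5 and 12.9 CPM in spleen and 34.3 and 43.7 CPM in lung (1.56 ± 0.170, adjusted p = 0.0044). The starts of Ky (2.15 ± 0.262), of the deoxyribonuclease gene Dnase1l3 (1.20 ± 0.147) and of Ctla2a (1.25 ± 0.157) were also higher. Besides Rora, the loci with the most higher peaks over 220 bp included Itpr1, an intracellular calcium channel, with 10 of 50, the cell adhesion gene Emb with 8 of 15, the RUNX factor gene Runx2 with 8 of 30 and the laminin gene Lamc1 with 7 of 15.

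On the lower side, an intergenic peak 50.6 kb from Sepsecs (chr5:52618453-52619075) read 25.4 and 26.7 CPM in spleen and 6.26 and 6.92 CPM in lung (-1.98 ± 0.197, adjusted p = 0.0038). Within Gm281, spleen read 11 and 9.77 CPM and lung 1.30 and 1.58 CPM (-2.83 ± 0.30, adjusted p = 0.0038). The start of Cst7, the protease inhibitor cystatin F of cytotoxic cells, was open in both tissues and read 72.7 and 63.0 CPM in spleen and 36.3 and 39.8 CPM in lung (-0.84 ± 0.125, adjusted p = 0.00748). The Clec16a and Socs1 window at chr16:10585389-10785388 held 7 lower and 1 higher of 36 peaks, beside 2.16% and 8.45% of all peaks. Over 220 bp the window had 7 lower and 2 higher of 33, and Clec16a 7 lower and 1 higher of 39, beside 2.32% and 5.01%. Both the window and the locus were chosen for their number of lower calls. The other lower windows of the rule were chr11:32062152-32262151, with Il9r and Nprl3, and chr17:12615108-12815107, with Igf2r. They held 6 lower and 2 higher of 32 peaks and 6 lower and 1 higher of 29.

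Some of the other lower peaks lay at genes known from red blood cells, a grouping made after the values were seen. The start of Hbb-bs, an adult beta-globin, read 3.64 and 4.96 CPM in spleen and 0.216 and 0.144 CPM in lung. The 156 counts of spleen against 4 of lung give a ratio of 24.0 (exact 95% binomial interval 9.19 to 89.2, counting error only). Here and below, the intervals pool the 2 libraries of each tissue, and counts of both mates make them too narrow. The peaks were picked for these same counts, so the intervals are no test of the difference. Slc4a1, the anion exchanger of red cells, had 4 of 5 peaks lower, of which the leading one read 4.42 and 7.57 CPM in spleen and 0.432 and 0.288 CPM in lung (ratio 16.3, interval 8.13 to 38.3). A peak at Alas2, the heme synthesis enzyme of red cells, had 76 counts in spleen and 2 in lung (ratio 23.4, interval 6.26 to 197). The Ranbp10 peak printed above read 5.63 and 10.6 CPM in spleen and 0.648 and 0.360 CPM in lung. The Dhrs11 peak printed above, which is at no gene of that grouping, with 182 counts in spleen and 2 in lung, had a ratio of 56.0 (interval 15.3 to 466). All of these peaks were higher in spleen control 2 than in spleen control 1 and near 0 in both lung libraries.

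Over an erythroid gene list drawn up after these values were seen, 32 of 139 peaks over 220 bp were lower and 3 higher, beside 2.32% and 5.01% of all peaks over 220 bp, which is a description only. The lower ones summed to 68.3 and 119 CPM in spleen and 9.72 and 9.44 CPM in lung. Of the erythroid factor genes, Gata1 had 1 lower peak of 4 (38 counts in spleen and 2 in lung), the cofactor genes Zfpm1 and Cbfa2t3 had 2 and 3 lower peaks, and Klf1 and Tal1 had none called, nor had the receptor gene Epor. Of the 198 lower peaks with at most 3 counts in each lung library, 164 (82.8%) were higher in spleen control 2 than in spleen control 1, beside 50.65% of all tested peaks over 220 bp and 52.4% of the other lower ones. These peaks passed the count filter only through the spleen libraries. In such bulk samples fewer cells of a type and less signal per cell cannot be told apart. The smaller erythroid marker list had 3 lower of 20 peaks (2.32% of all peaks) and summed to 262 and 264 CPM in spleen and 242 and 265 CPM in lung, and whether red cell precursors took part in the sorted spleen cells was not tested.

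Peaks at markers of other cell types were called higher at shares that lay below, near or above the 5.01% of all peaks over 220 bp. In that fit 0 of 15 peaks at lung epithelium genes and 0 of 18 at fibroblast genes were called. At endothelium genes 2 of 39 were higher and 1 lower, at B-cell genes 2 of 34 higher, at myeloid genes 1 of 19 higher and at CD8 and natural killer cell genes 3 of 16 higher (2 at Klrb1c and 1 at Klrd1, receptors of natural killer cells) and 1 lower, the last list at 18.8% higher. Over 220 bp, summed levels were 108 and 111 CPM in spleen and 100 and 119 CPM in lung for lung epithelium, and 187 and 209 CPM against 196 and 236 CPM for myeloid genes. For endothelium they were 258 and 271 CPM against 257 and 307 CPM, for fibroblasts 58.4 and 61.1 CPM against 70.7 and 66.7 CPM, and for B cells 219 and 222 CPM against 222 and 237 CPM. For CD8 and natural killer cell genes they were 101 and 87.1 CPM in spleen and 109 and 102 CPM in lung, so that both lung libraries lay above both spleen libraries for this list and for fibroblasts. Over all widths they did so for lung epithelium (117 and 124 CPM in spleen, 137 and 139 CPM in lung), myeloid cells (at most 251 CPM in spleen, at least 308 CPM in lung), endothelium (286 and 310 CPM, 352 and 364 CPM, with 7 of 52 peaks higher) and the other lists of non-T cells except the erythroid one. The part of such cells in the results was not tested. Markers of T cells, which the sort should hold, summed to 782 and 866 CPM in spleen and 727 and 900 CPM in lung, and those of Treg cells to 924 and 1024 CPM against 833 and 1095 CPM. The lung and spleen levels of both overlapped.

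Short sequence matches differed between the sets of peaks. Within 200 bases centred on peaks over 220 bp, on either strand, AP-1 letters (TGANTCA) were in 22.1% of peaks higher in lung and in 10.2% of all peaks. RUNX letters (TGTGGTT) were in 15.3% against 8.86%, NF-kB letters (GGANTTTCC) in 2.88% against 1.24% and ROR letters (TAGGTCA) in 3.72% against 1.69%. The longer MAF letters TGCTGANTC, which overlap those of AP-1, were in 3.15% against 1.23%. GATA letters (AGATAA) were in 48.5% of the lower peaks with at most 3 counts in each lung library (198 peaks), in 16.5% of the other lower peaks, in 14.1% of the higher ones and in 9.54% of all peaks. Among the other lower peaks NFAT letters (TGGAAAA) were in 8.87% against 3.86% of all and STAT letters (TTCNNNGAA) in 11.3% against 5.98%. CTCF letters (CNAGGGGGC) were in 0.842% of higher peaks against 2.64% of all. These shares describe letters and not bound factors.

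**Figure D5:**
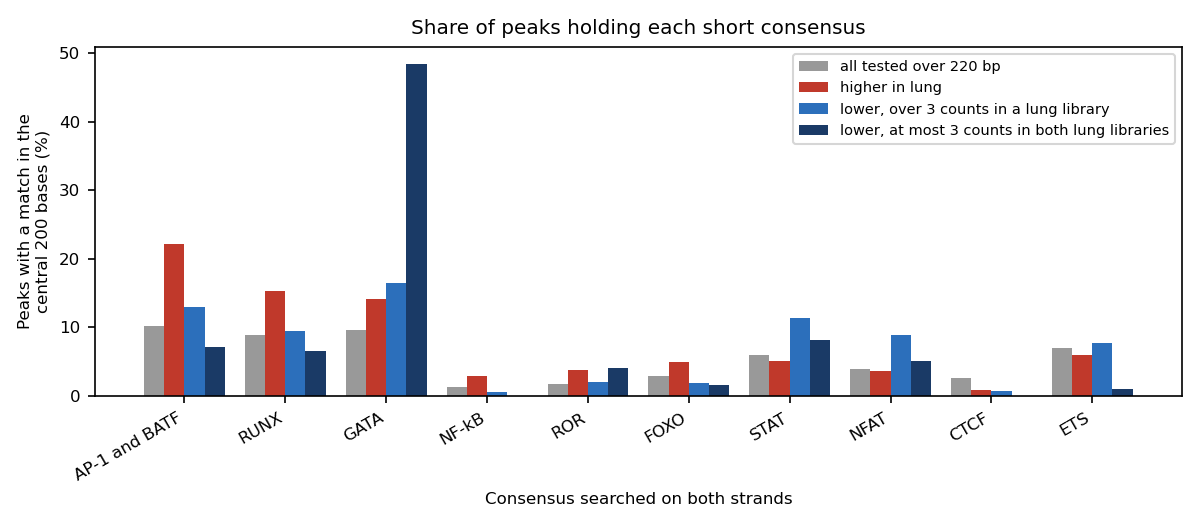
Percent of peaks over 220 bp with each set of letters in the central 200 bases (y axis, bars) by the letters searched (x axis) for all peaks, peaks higher in lung, lower peaks with at most 3 counts in each lung library and other lower peaks. AP-1 letters were in 22.1% of higher peaks and GATA letters in 48.5% of the lower peaks with at most 3 counts in each lung library.

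The same tissue difference was measured in Vps34-deficient Treg cells, in libraries not shared with the controls. In 1 fit of all 10 libraries, 3074 peaks over 220 bp were higher in deficient lung than in deficient spleen (4.13%) and 2309 were lower (3.1%). Over all widths 12095 were higher (12.5%) and 4583 lower (4.72%). Over 220 bp, 90.1% of the peaks called higher in controls were above 0 in the deficient libraries, against 50.1% of all tested peaks, and 95% of those called lower were below 0, against 49.9%. Over all widths these shares were 95.8% against 47.1% and 96.9% against 52.9%. Over 220 bp, higher in both were 1437 peaks, which are 38.9% of the control and 47.3% of the deficient calls among peaks in both fits, and lower in both were 743 (43.5% and 32.7%). Called the opposite way were 6 and 1. The median log2 fold changes of the control calls were 1.22 in controls and 0.66 in deficient libraries for higher peaks, and -1.36 and -0.77 for lower ones, where the first of each pair is the value the peaks were chosen by.

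Single genes varied between the 2 sets. The Tigit start rose by 0.87 in the deficient lung (adjusted p = 8.79e-06) beside 0.78 in controls, and the leading Ccr7 peak by 2.38 (adjusted p = 8.27e-08) beside 1.64. The leading Il1rl1 peak had 1.37 (adjusted p = 0.0547) beside 3.07, and the leading Klrg1 peak 0.33 (adjusted p = 0.532) beside 1.33. A test of the difference itself, the interaction of tissue and genotype in edgeR, called 0 peaks of any width, with a smallest adjusted p of 0.159 and 7060 peaks at an unadjusted p below 0.05. DESeq2 called 12, and edgeR without lung control 1 called 38. Over 220 bp edgeR called 0, with 6503 at an unadjusted p below 0.05.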

How the data were processed

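The deposited table holds raw read counts per peak, made by the authors from ATAC-seq reads of 10 libraries. Per the labels and the study's methods, reads were trimmed, aligned, stripped of duplicates and limited to nucleosome-free fragments, peaks were called per sample with MACS2 (2.1.0.20150603), kept if recurrent and merged, and reads were counted with bedtools; the processing notes also name cutadapt 1.9 and Picard 1.65. The methods name mm9, but the positions were used as GRCm38, since 51.3% of GRCm38 protein-coding starts lay in a peak, against 2.82% and 2.67% after a shift of 100 kb either way, and peaks were assigned to protein-coding genes of GENCODE. In the 4 control libraries 92.1% to 96.5% of values were even, as if both mates of a pair were counted, so the number of fragments is fewer than the counts.

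The 4 control libraries were fitted with edgeR 4.0.16 in R 4.3.3 (TMM scaling, filterByExpr, quasi-likelihood test, Benjamini-Hochberg adjustment over all tested peaks). A peak was called at an adjusted p below 0.05 and a log2 fold change beyond 0.5, and 4088 of 97385 peaks were not tested. Alternatives were DESeq2 1.42.0, limma 3.58.1 loess offsets, other scalings and filters, a replicate block and leaving out each library. A refit of peaks over 220 bp was added after the data were seen, as were its leave-one-out fits.

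Peaks were named by a rule: in each direction the 10 called peaks with the smallest p, the 8 loci with the most called peaks, the 5 leading promoter peaks (within 1 kb), the 3 densest 200 kb windows, and for each listed gene its called peak over 220 bp with the smallest p or, with none, the strongest. Further peaks of listed genes, the Icam2, Itpr1 and Emb peaks or loci taken by the same rule over 220 bp, and the Lamc1 locus, which is outside the rule, were chosen after their values were seen. The comparison and the gene lists were chosen with earlier results of these data known. The Gm20388 and Fgfr2, named by this rule, are gene models over a megabase and are not described. Not every listed gene is reported here by name. Same-numbered spleen and lung libraries did not deviate together (correlation 0.013), so numbers were not used as pairs. Levels of chromosome Y peaks split the libraries of each tissue in the same way as the numbers do. A block on that split therefore gives the same fit as a block on the numbers. It called 8683 higher and 2603 lower peaks, against 7880 and 2013 without a block.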

Additional observations from a re-analysis of the deposited data

Results flagged for a closer look

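At 4 of the peaks both lung control libraries lay above both spleen control libraries while both Vps34-deficient lung libraries lay below all 4 Vps34-deficient spleen libraries. In an intron of Stat4 the log2 fold change was 1.15 in controls and -0.62 in the deficient libraries (adjusted p of the difference 0.309, edgeR interaction test). In Pdcd1 it was 0.95 and -0.77 (adjusted p of the difference 0.201), and at an intergenic peak 19.8 kb from Klrg1 it was 0.81 and -0.71 (0.297). In Rora it was 0.94 and -0.41 (0.298). None of the 4 differences passed the threshold, and with 2 lung libraries in each set the opposite order rests on few values.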

How the results depend on the processing

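Over 222 called peaks kept under the naming rule and 6195 values under other settings, 0 reversed. This says little of direction, since both lung libraries lay on one side of both spleen libraries at every called peak, so that leaving out a library or changing a filter or threshold could hardly turn a sign. Of these values 1114 lost the call. In the 4-library fits of all peaks without a spleen control library every one of these peaks lost it. More calls were lost over 220 bp without a spleen control library. Leaving out lone libraries ranged from 0 to 12783 higher and from 0 to 5805 lower peaks in the fit of all peaks (7880 and 2013 with all 4). The 0 came without either spleen library, where 8248 and 11123 peaks still had an unadjusted p below 0.05, and the lone library is assumed to vary like the other group. Over 220 bp, without spleen control 1, spleen control 2, lung control 1 and lung control 2 in turn, 1581, 2129, 6178 and 4488 were higher and 664, 587, 4327 and 3242 lower. In the fit of all 10 libraries and peaks of all widths, the same order gave 3733, 6656, 5054 and 10551 higher and 1226 to 3325 lower (3162 without lung control 2). DESeq2 called 5234 higher and 1243 lower (5180 higher with library-size scaling), an adjusted p below 0.01 left 1529 and 250, all 10 libraries in 1 fit gave 3428 lower, and peaks over 220 bp gave 3694 higher (3996 with all 10 libraries). Promoter shares ranged over left-out libraries from 0 to 3.79% higher and from 0 to 5.36% lower, against 2.29% and 0.922% with all 4 libraries (8.45% and 2.16% of all peaks). The interaction test called 0 with edgeR, 12 with DESeq2 and 0 to 38 with 1 library left out. The fit with the replicate number as a block called 8683 higher and 2603 lower, and 1 named peak lost its call under this pairing.

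With a 50 kb flank, which adds tested peaks, counts for gene lists moved to 55 higher and 2 lower for tissue effector genes, 16 and 11 for identity genes, 27 higher for chemokine receptors, 17 higher for receptor-induced genes, 6 lower for NF-kB genes, 20 higher and 2 lower for cytokine receptors, 17 higher and 1 lower for cytokines and 21 higher for coinhibitory receptors. With all 10 libraries they were 28 lower for central genes, 9 lower for identity genes, 13 higher and 6 lower for AP-1 genes, 4 lower for NF-kB genes, 21 higher and 3 lower for cytokine receptors and 1 lower for cytokines. Library-size scaling gave 16 lower for central genes, 7 lower for identity genes and 1 lower for cytokines. Over 220 bp the counts were 5 higher for identity genes, 0 lower for helper factors, 1 lower for receptor-induced genes, 1 lower for NF-kB genes and 17 higher for cytokine receptors. Medians near 0 (AP-1, receptor-induced, cytokine receptor, chemokine and coinhibitory lists) changed sign with the scaling or the set of peaks.

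Having 2 libraries a group limits all p-values, lung control 1 is the shallowest library (9405823 counts), and counts of both mates make counting intervals too narrow.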
